A study of Homo sapiens with 6 samples.

Results

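Subtelomeric peaks were defined as ATAC-seq peaks on chromosomes 1 to 22 whose summit lay within 3 Mb of either end of the chromosome in the human genome build hg38. Of the 50267 peaks in the 3 deposited lists, 3268 met this rule: 478 of 7880 in wild-type (WT) neural progenitor cells (NPCs), 1778 of 25439 in dKO NPCs and 1012 of 16948 in dKO NPCs with BAF53B. Merged over the lists by an overlap of at least 1 bp, they covered 2022 separate regions. ATAC-seq marks open chromatin by the sites at which a transposase inserts adapters. All 6 samples were NPCs derived from H1, a human embryonic stem cell line, with 2 replicates in each of 3 groups. WT cells carried both UTX and JMJD3, which remove methyl groups from histone H3 lysine 27, and dKO cells lacked both. In the third group (dKO-BAF53B), dKO cells were transduced with a lentivirus expressing BAF53B, a subunit of the neuronal BAF chromatin remodelling complex. The titles of the WT and dKO samples mark the passage as 2, and those of the dKO-BAF53B samples give no passage number. Whether dKO cells were 1 clone was not given in the sources used here, and the virus and its transduction cannot be told apart from BAF53B itself.

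Because both replicates of a group went into 1 peak list, replicate values and their SD could not be had, and no comparison has a p-value. The 95% intervals given here cover counting error only and leave out the spread between samples. Values compared are those of the 3 lists, and no value stands for the spread of a condition. The promoters of PAX6, NES, POU5F1 and NANOG, which mark progenitor or pluripotent cells, held no peak in any list. The SOX2 promoter held a peak in the dKO list alone and the SOX1 promoter in both dKO lists. In the WT list, only 29.1% of autosomal genes had a promoter peak. Missing calls in WT could thus neither bear out nor contradict the label of neural progenitors.

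The end of a human chromosome consists of tandem telomere repeats, followed inwards by segments duplicated between chromosomes and then by single-copy sequence. On many human chromosomes, this terminal single-copy sequence is rich in GC, CpG islands and genes. Genes close to telomeres can be silenced with the neighbouring heterochromatin, and olfactory receptor and zinc finger gene families often lie near chromosome ends. In this build, the p arms of chromosomes 13, 14, 15, 21 and 22 have no assembled sequence within the window, which left 39 of 44 ends with 115 Mb, or 4.17% of the assembled autosomes.

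The sequences that carry the results are shown first, as the bases around the summit in hg38, forward strand, 5′ to 3′. The member of highest fold in all 3 lists, at chr1:633926-634126 between genes, is a nuclear copy of mitochondrial DNA. Capitals mark the bases that differ from the best ungapped match in the mitochondrial genome.
chr1 mitochondrial copy: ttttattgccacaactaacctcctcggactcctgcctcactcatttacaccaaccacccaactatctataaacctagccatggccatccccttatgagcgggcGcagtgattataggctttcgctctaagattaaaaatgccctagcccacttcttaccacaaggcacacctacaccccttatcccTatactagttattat
The third strongest WT member, at chr10:133689334-133689534 between genes, is built of a tandem repeat. Capitals mark stretches of at least 12 bases that occur more than once in the window.
chr10 repeat: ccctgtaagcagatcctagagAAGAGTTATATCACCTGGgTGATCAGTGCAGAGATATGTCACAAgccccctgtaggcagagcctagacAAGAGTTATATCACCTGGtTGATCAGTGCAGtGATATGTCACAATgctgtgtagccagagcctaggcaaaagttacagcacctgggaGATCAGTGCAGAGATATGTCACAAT

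The following windows, except the last, stand for peaks that differed between the lists, and the last stands for ETS matches. Capitals mark matches to the GC box bound by SP and KLF factors (GGGCGG), the NRF1 site (GCGCANGCG) and the ETS site (CCGGAAG), read on both strands, and the window with no capitals held no motif searched. The shared member with the largest dKO over WT ratio, at chr1:2227705-2227905, lies in the promoter of SKI, an inhibitor of TGF-beta signalling. Its summit is 417 bp from the gene start.
SKI: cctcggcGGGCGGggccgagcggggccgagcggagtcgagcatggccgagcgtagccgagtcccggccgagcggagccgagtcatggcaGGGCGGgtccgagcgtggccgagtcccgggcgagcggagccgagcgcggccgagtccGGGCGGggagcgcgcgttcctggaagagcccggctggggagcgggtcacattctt
The member of highest fold in the dKO list without a WT peak, at chr5:1594486-1594686, lies in an exon of a non-coding gene, and the nearest coding gene is LPCAT1.
chr5 exon: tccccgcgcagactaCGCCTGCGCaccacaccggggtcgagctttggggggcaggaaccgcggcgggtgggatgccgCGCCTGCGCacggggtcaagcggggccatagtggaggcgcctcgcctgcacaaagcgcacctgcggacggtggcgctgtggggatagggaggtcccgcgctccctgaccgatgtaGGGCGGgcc
The member of highest fold in the WT list without a dKO peak, at chr17:928030-928230, lies in an intron of NXN, a thioredoxin-like redox regulator.
NXN intron: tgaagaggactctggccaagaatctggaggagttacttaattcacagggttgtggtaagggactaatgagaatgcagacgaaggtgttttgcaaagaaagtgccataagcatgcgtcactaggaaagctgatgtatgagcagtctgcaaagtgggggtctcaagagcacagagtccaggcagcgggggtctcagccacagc
The WT member of highest fold with an ETS match outside UTRs, at chr12:133080145-133080345, lies in the promoter of ZNF140, a KRAB zinc finger gene.
ZNF140: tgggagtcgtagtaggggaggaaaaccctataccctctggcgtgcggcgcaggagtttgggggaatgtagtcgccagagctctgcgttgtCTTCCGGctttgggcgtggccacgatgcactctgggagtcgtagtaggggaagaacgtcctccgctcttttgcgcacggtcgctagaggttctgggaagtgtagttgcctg

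The 3 members of highest fold were the same regions in every list and differed little between the lists. The pileup, which is the number of fragments over the summit, was recovered as a whole number, within 0.01, for every peak. At the mitochondrial copy at 0.634 Mb from the end of chromosome 1p, it was 617 in WT, 703 in dKO and 750 in dKO-BAF53B, and the fold over local background was 35.3, 36.4 and 35.6. A second copy at 0.63 Mb, starting at position 629807, had 289, 302 and 323 fragments. Within 100 bp of the summit, these windows matched the mitochondrial genome at 99.0% and 98.5% of the bases. Reads from mitochondrial DNA can align to such copies, and their part in these peaks was not tested. The chr10 repeat had 114, 137 and 126 fragments. Its best match to itself, over 1001 bases, was 56.4% at a shift of 68 bases, against a median of 24.5% over other shifts. After scaling to genome background, the dKO over WT log2 ratio of pileup was 0.08, -0.04 and 0.16 for these 3 regions, which places all 3 far below the typical shared member.

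Members were found at all 39 assembled ends in each list. An end held between 1 and 46 peaks in WT (median 10), between 4 and 124 in dKO (median 45) and between 4 and 75 in dKO-BAF53B (median 21). The end of 19p held 44, 124 and 73 peaks in WT, dKO and dKO-BAF53B, that of 16p held 34, 100 and 62, and that of 19q held 46, 93 and 75. The 5 ends with most dKO members held 26.2% of them. The end of 8p was the poorest, with 1, 4 and 5 peaks. All 39 ends held more dKO than WT peaks, with a ratio from 1.75 at 3p to 11 at 11q (median 4). At 34 of the 39 ends, this ratio was above that of the remaining peaks of the same chromosome. The dKO-BAF53B list held fewer peaks than the dKO list at 38 of 39 ends (median ratio 0.556), and 8p was the exception.

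**Figure D1:**
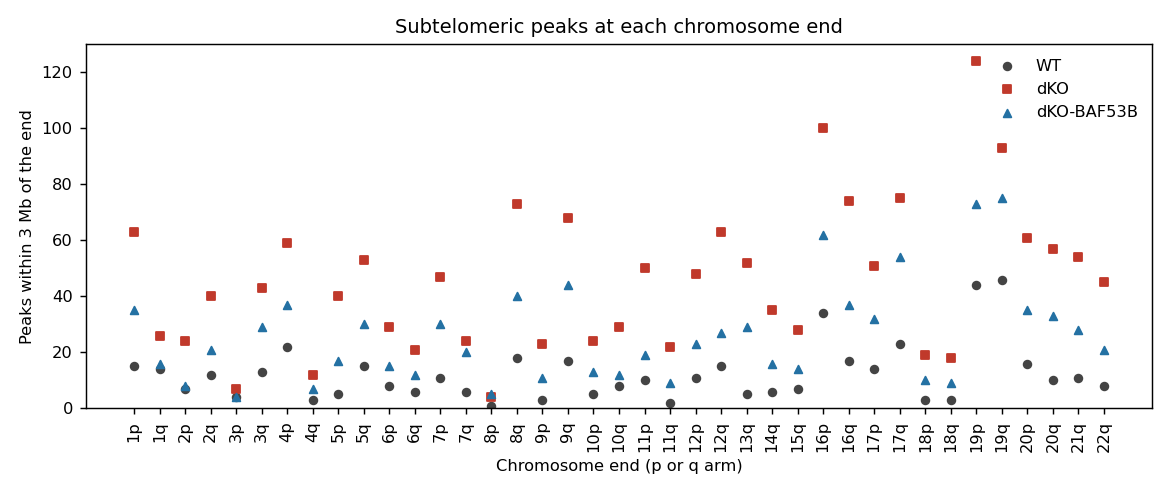
Number of peaks within 3 Mb of each of the 39 assembled chromosome ends (x axis) in the WT, dKO and dKO-BAF53B lists (points). The dKO point is above the WT point at all 39 ends, and the ends of 19p, 16p and 19q hold the most peaks.

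The subtelomeric windows were peak-rich in absolute terms and peak-poor for their base composition. Members made up 6.15% (5.64 to 6.71) of autosomal peaks in WT, 7.10% (6.79 to 7.42) in dKO and 6.05% (5.70 to 6.42) in dKO-BAF53B. Per assembled Mb, the subtelomeric windows held 4.16 WT, 15.4 dKO and 8.80 dKO-BAF53B peaks, against 2.76, 8.81 and 5.95 in the rest of the autosomes, ratios of 1.51, 1.75 and 1.48. The mean GC content was 48.4% in the subtelomeric windows and 40.6% elsewhere. When other 10 kb windows were weighted to the same GC content, they held 5.65, 20.6 and 11.9 peaks per Mb, and the ratios turned to 0.736 (0.665 to 0.815) in WT, 0.750 (0.711 to 0.792) in dKO and 0.740 (0.690 to 0.794) in dKO-BAF53B. Protein-coding genes followed the same course, with 14.3 starts per Mb against 6.61 elsewhere and 18.2 in windows of the same GC content, a ratio of 0.785 (0.741 to 0.831).

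Density was higher near the ends than beyond 10 Mb in all lists, without a steady fall in between. WT density was 5.43 peaks per Mb in the outermost 0.5 Mb, 4.54 from 0.5 to 1 Mb, 3.32 from 2 to 3 Mb, 3.52 from 5 to 10 Mb and 2.67 beyond 10 Mb. The dKO density was 15 in the outermost 0.5 Mb, peaked at 18.5 from 0.5 to 1 Mb and was 8.43 beyond 10 Mb. The dKO-BAF53B density was 9.35, 10.1 and 5.79 in the same bins. The ratio of dKO to WT peaks was thus lowest in the outermost bin, at 2.76 (2.19 to 3.48), then 4.08 (3.23 to 5.15) in the next, and 3.15 (3.06 to 3.24) beyond 10 Mb. The dKO-BAF53B over dKO ratio ran from 0.623 (0.514 to 0.756) in the outermost bin through 0.543 (0.456 to 0.647) to 0.688 (0.673 to 0.703) beyond 10 Mb. There was no step at 3 Mb: from 3 to 5 Mb, the ratios were 3.74 (3.27 to 4.27) and 0.584 (0.527 to 0.646). The members just inside the limit were dKO and dKO-BAF53B peaks in an intron of NQO2, with 52 and 56 fragments. The first peaks outside it were a dKO peak on 9q with 41 fragments and a dKO peak on 16p with 145.

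**Figure D2:**
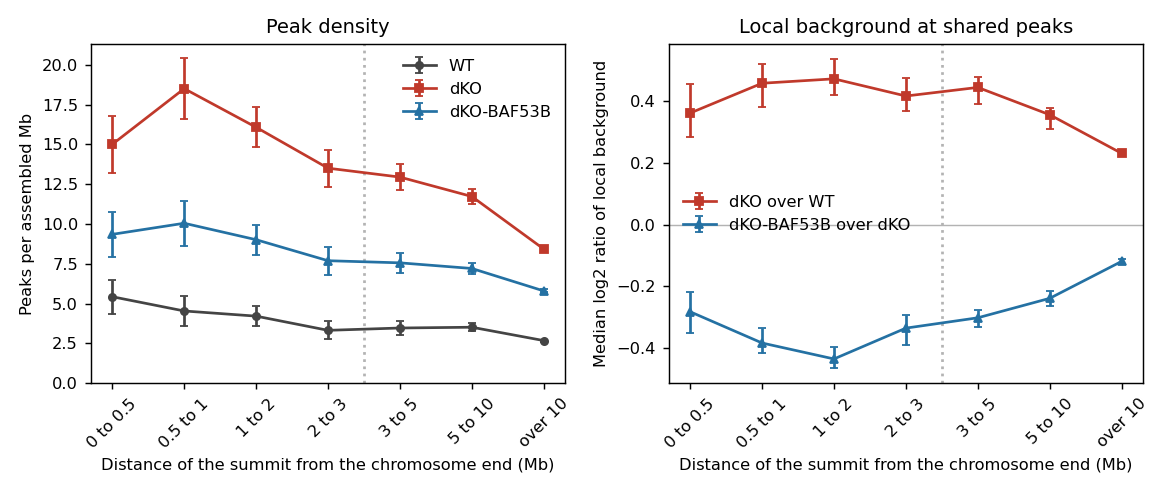
Peaks per assembled Mb (left, bars show 95% counting intervals) and median log2 ratio of local background at shared peaks (right, bars show 95% intervals of the median) by distance of the summit from the chromosome end in Mb, with the dotted line at 3 Mb. Density is lowest beyond 10 Mb in all 3 lists and highest from 0.5 to 1 Mb in both dKO lists, and both background ratios are farthest from 0 between 1 and 2 Mb and nearest to it beyond 10 Mb.

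The number of subtelomeric peaks changed more between the lists than the number of other autosomal peaks. The dKO list held 3.72 times as many members as the WT list, against 3.19 times for other peaks, a ratio of 1.17 (1.05 to 1.29). The dKO-BAF53B list held 0.569 times as many members as the dKO list, against 0.676 for other peaks, a ratio of 0.842 (0.778 to 0.912). Between dKO-BAF53B and WT, members and other peaks had similar ratios, 2.12 and 2.16, which gave 0.982 (0.878 to 1.10). Set against windows of the same 10 kb GC content, the first ratio was 1.02 (0.909 to 1.14) and the second 0.986 (0.903 to 1.08). The larger swing of the subtelomeric peaks was therefore not detectable at equal GC content of the surrounding 10 kb.

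Most WT members were retained in dKO cells, and most dKO members had no WT counterpart. Of 478 WT members, 411 (86.0%) overlapped peaks in both other lists, 20 a dKO peak alone, 5 a dKO-BAF53B peak alone, and 42 (8.79%) were found in WT alone. Thus 47 WT members (9.83%, 7.48 to 12.8) had no dKO peak, against 20.7% of all autosomal WT peaks. At matched GC content, the share of WT peaks with a dKO peak was 90.2% in members and 90.6% in others, a difference of -0.44 percentage points (-3.54 to 2.05). Of 1778 dKO members, 1353 (76.1%) had no WT peak, against 75.6% of all autosomal dKO peaks, and 977 (54.9%) had no dKO-BAF53B peak, against 55.7%. Of 1012 dKO-BAF53B members, 214 (21.1%) had no dKO peak, against 33.4% over all autosomes. At matched GC content of the peak, 78.85% of these members had a dKO peak, against 81.45% of others. This was a difference of -2.594 percentage points (-5.315 to -0.077). With the GC content of the surrounding 10 kb matched as well, it was 0.654 (-2.435 to 3.613).

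Among dKO members, those found in all lists lay mostly in promoters and had the highest median pileup. The 405 dKO members found in all lists had a median of 80 fragments, and 75.8% lay in promoters. The 396 dKO members shared with dKO-BAF53B alone had a median of 54 fragments, with 64.1% in promoters. The 957 found in dKO alone had a median of 39 fragments, with 21.8% in promoters. The dKO-only class thus lay mostly away from promoters and had the lowest median pileup of the dKO classes. The 209 dKO-BAF53B members found in neither other list were similar, with a median of 31 fragments and 16.3% in promoters. These classes, and those of the WT members above, were not tallied for other autosomal peaks. They describe the members and do not show a trait particular to them.

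At matched GC content of the peak, dKO members overlapped the other lists less often than other dKO peaks. The share with a WT peak was 23.9% against 28.5%, a difference of -4.55 percentage points (-6.59 to -2.41), and the share with a dKO-BAF53B peak was 45.1% against 51.8%, a difference of -6.73 (-9.14 to -4.30). When the GC content of the surrounding 10 kb was matched as well, the differences were -0.02 (-2.31 to 2.34) and 0.04 (-2.67 to 2.75). By position, 9.47% of 486 intronic members had a WT peak, against 13.8% of other intronic dKO peaks of the same peak GC content, a difference between -6.80 and -1.23. The shares were 11.5% of 157 members against 18.9% in exons (-12.1 to -1.23), 11.1% of 350 members against 10.8% between genes (-2.74 to 4.26) and 41.0% against 39.1% in promoters (-1.65 to 5.58). Of the 1353 dKO members without a WT peak, 396 (29.3%) were found in dKO-BAF53B, against 28.6% of all such autosomal peaks without matching. Other such peaks of the same peak GC content had 35.1%, a difference of -5.79 percentage points (-8.29 to -3.18). With the 10 kb GC content matched as well, the difference was -0.56 (-3.39 to 2.34). Of the 47 WT members without a dKO peak, 5 were found in dKO-BAF53B (10.6%, 4.63 to 22.6), against 28.1% over all autosomes. At matched peak GC content, the difference from other such peaks was -16.3 percentage points (-23.4 to -3.86). With the 10 kb GC content matched as well, it was -18.8 (-27.2 to -5.70). This last count is small, and its difference turned positive with a 5 Mb window, at 1.80 (-6.75 to 11.8). At a −log10 q of at least 10, it was 25 (-23.0 to 55.0). Both of these intervals include 0.

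At shared peaks, the pileup was higher in dKO than in WT and lower again in dKO-BAF53B. Ratios were taken after each pileup was divided by the genome background of its list. Over the 425 dKO members with a WT peak, the median pileup was 79 fragments in dKO and 39 in WT, and the median log2 ratio was 0.86, or 1.81-fold. The ratio was above 0 at 407 members (95.8%), ranging from -0.48 to 1.86. At a cut of 1.5-fold, 305 members (71.8%, 67.3 to 75.8) were higher in dKO, against 59.6% of all shared autosomal peaks, and 0 were lower (up to 0.896%), against 0.409%. Over the 798 members shared by dKO-BAF53B and dKO, the median log2 ratio was -0.52, or 0.697-fold. At the same cut, 338 of them (42.4%, 39.0 to 45.8) were lower in dKO-BAF53B, against 30.9%, and 0 were higher (up to 0.479%), against 1.15%. Between dKO-BAF53B and WT, the median was 0.24 over 409 members. At this cut, 64 (15.6%) were higher, against 14.7%, and 5 (1.22%) were lower, against 0.293%.

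The local background moved in the same direction as the pileup. It measures fragments in the 10 kb around a peak, the peak included. At members shared by dKO and WT, the median was 880 fragments per 10 kb in dKO and 624 in WT, and at other shared peaks 763 and 599. The log2 ratio of background, scaled to genome background, was 0.44 at members and 0.27 at other peaks of the same peak GC content, a difference of 0.17 (0.13 to 0.20). For the pileup, the corresponding medians were 0.86 and 0.72, a difference of 0.14 (0.08 to 0.19). From dKO to dKO-BAF53B, the background ratio was -0.38 at members and -0.16 at other peaks, a difference of -0.22 (-0.23 to -0.20), and the pileup ratio was -0.52 and -0.41, a difference of -0.11 (-0.15 to -0.08). On the scale of the deposited fold, which divides by local background, the pileup differences were -0.01 (-0.05 to 0.04) for dKO over WT, an interval that includes 0, and 0.06 (0.02 to 0.09) for dKO-BAF53B over dKO, opposite in sign to that of the scaled pileup. Of the 27 ends with at least 5 shared peaks, the median background ratio of dKO over WT was above 0 at all 27, and it exceeded that of the rest of the same chromosome at 21. The pileup ratio did so at 17.

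The GC content of the surrounding 10 kb moved with these differences. Its median was 52.8% around dKO members and 45.2% around other dKO peaks. Over shared members, the background log2 ratio of dKO over WT was 0.19 (0.11 to 0.22) at 40 to 45% GC in the 10 kb window, 0.45 (0.37 to 0.49) at 50 to 55% and 0.73 (0.70 to 0.79) at 60 to 65%. Other peaks had 0.14, 0.46 and 0.65 in the same bins. From dKO to dKO-BAF53B, members had -0.07, -0.38 and -0.64 in these bins, and other peaks -0.02, -0.36 and -0.62. When both GC measures were matched, members and others differed by 0.01 (-0.04 to 0.04) in background and 0.03 (-0.03 to 0.09) in pileup for dKO over WT, and by -0.01 (-0.04 to 0.01) and -0.01 (-0.05 to 0.03) for dKO-BAF53B over dKO. At equal GC content of the surrounding 10 kb, a height difference particular to chromosome ends was thus not detectable in these lists.

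**Figure D3:**
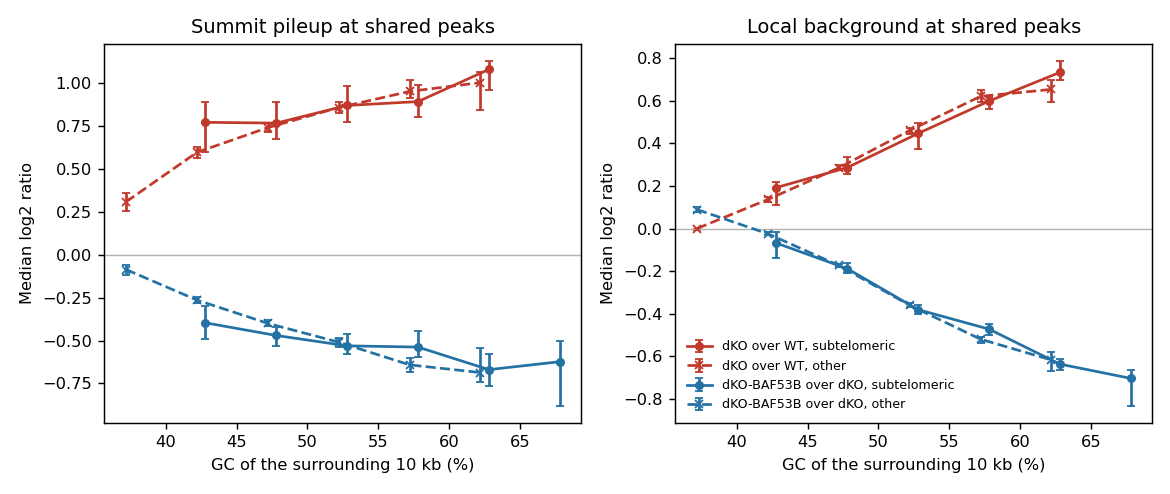
Median log2 ratio of scaled summit pileup (left) and of scaled local background (right) at shared peaks by GC content of the surrounding 10 kb, for subtelomeric peaks (solid) and other autosomal peaks (dashed), in bins of at least 20 peaks with 95% intervals of the median. Ratios of dKO over WT rise and those of dKO-BAF53B over dKO fall with GC content, and the solid and dashed lines lie close to each other.

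Among the 1643 protein-coding genes that start within 3 Mb of an end, WT cells had a promoter peak at 408 (24.8%, 22.8 to 27.0), against 29.1% of all 19111 autosomal genes. In dKO, 885 (53.9%, 51.5 to 56.3) had a promoter peak, against 57.3%, and in dKO-BAF53B 709 (43.2%, 40.8 to 45.6), against 46.0%. Promoter peaks were summits within 3 kb of the gene start. At 482 genes (29.3%), the dKO list held a promoter peak and the WT list did not, against 28.6% over all genes, and the reverse held at 5 genes (0.304%), against 0.413%. Of the 482, 289 also had a peak in dKO-BAF53B. All lists held a peak at 389 of the genes, and 722 had none. These counts stand without the same shares over all autosomal genes and are a description. Compared with other genes of the same GC content around the start, the subtelomeric share was lower by 5.43 percentage points in WT (-7.69 to -3.07), 12.1 in dKO (-14.7 to -9.49) and 7.17 in dKO-BAF53B (-9.77 to -4.53). With the 10 kb GC content matched as well, the differences were 0.48 (-2.22 to 3.22), -2.29 (-5.43 to 0.85) and 2.38 (-0.73 to 5.50).

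**Figure D4:**
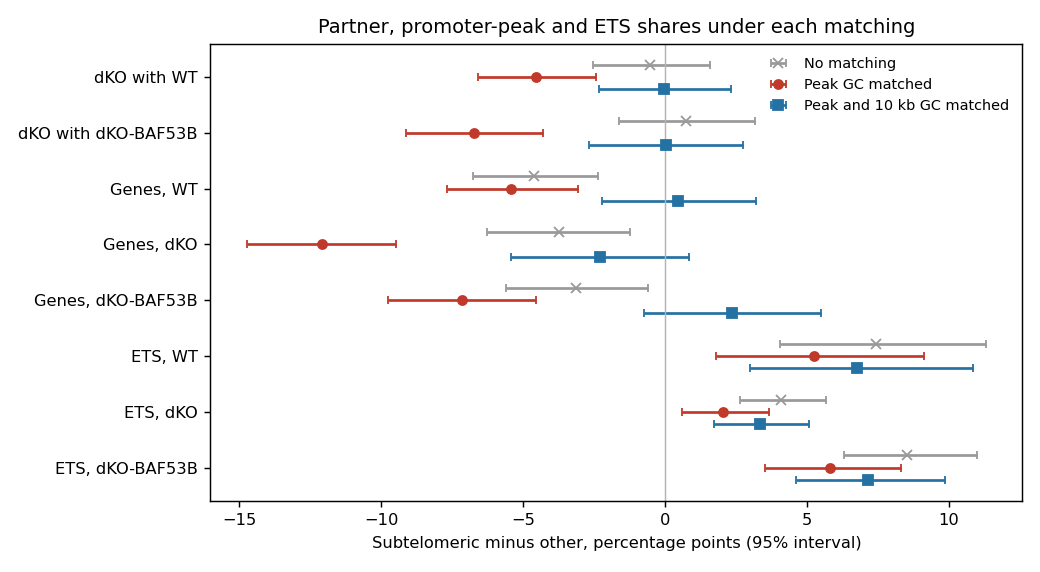
Difference between subtelomeric and other autosomal peaks or genes, in percentage points with 95% counting intervals (x axis), for the share of dKO peaks with a partner, the share of genes with a promoter peak and the share of peaks with an ETS match, without matching, with peak or promoter GC matched and with the 10 kb GC matched as well. The partner and gene differences reach 0 within their intervals under the last matching, and the ETS differences stay above 0.

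Zinc finger genes, most of which encode KRAB-type repressors, were the largest listed family at the chromosome ends. Of 96 such genes, a promoter peak was called at 51 (53.1%) in WT, at 85 (88.5%) in dKO and at 74 (77.1%) in dKO-BAF53B, against 29.1%, 57.3% and 46.0% of all autosomal genes. Of the 51 genes with a peak in both WT and dKO, 50 had a higher scaled pileup in dKO, with a median log2 ratio of 0.87 and a range from -0.15 to 1.58, close to the median of 0.86 over all shared members, of which 95.8% were higher. ZNF132 had 42, 135 and 76 fragments in WT, dKO and dKO-BAF53B, and ZNF8 had 34, 105 and 68. ZNF343 was the exception, with 34, 33 and 35 fragments. From dKO to dKO-BAF53B, 69 of 74 genes were lower, with a median of -0.50. Over all 798 shared members, the median was similar, at -0.52, and 7.52% had a ratio above 0. Shared members overlap, whereas the promoter peaks of a gene were paired without that rule. At ZNF778, the dKO and dKO-BAF53B peaks did not overlap. Neighbouring genes such as ZNF10 and ZNF891 shared a peak, so genes of the list are not independent.

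Of 8 genes of telomere and chromosome maintenance, WT cells had a promoter peak at 2 (25%), dKO cells at 7 (87.5%) and dKO-BAF53B cells at 5 (62.5%), against 29.1%, 57.3% and 46.0% of all autosomal genes. POLE, the catalytic subunit of DNA polymerase epsilon, had 29, 74 and 60 fragments. KDM5A, a histone H3 lysine 4 demethylase, had 30, 62 and 32. FANCA, of the Fanconi anaemia DNA repair pathway, had 79 in dKO and 56 in dKO-BAF53B, and no WT peak. SMCHD1, a chromatin protein that silences repeats near chromosome ends, had 41 and 34 and no WT peak. TERT, the catalytic subunit of telomerase, had no promoter peak in any list.

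Of 25 genes of Notch signalling and neural development, WT cells had a promoter peak at 3, dKO cells at 8 and dKO-BAF53B cells at 5. These shares of 12%, 32% and 20% stand against 29.1%, 57.3% and 46.0% of all autosomal genes. The GC content around the starts exceeded 65% in all but MYT1L and DMRT2. NOTCH1, which encodes a receptor that keeps progenitors undifferentiated, had no WT peak, 109 fragments in dKO and 40 in dKO-BAF53B. SOX1, a neural progenitor factor, had no WT peak, 46 fragments in dKO and 67 in dKO-BAF53B. SOX12, a related factor, had 85 fragments in dKO and 66 in dKO-BAF53B. Its WT promoter peak, with 38 fragments, overlapped neither of these, so the counts are of different sites. MYT1L, a neuronal transcription factor, had 30 fragments in WT and no peak in the other lists. HES5 and DLL1, a Notch target and a Notch ligand, had none in any list, nor did FOXC1, FOXF2 and FOXQ1 on 6p. None of these absences excludes accessibility below the calling threshold.

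Of 14 synaptic and neuronal genes, WT cells had a promoter peak at 1 (7.14%), dKO cells at 8 (57.1%) and dKO-BAF53B cells at 3 (21.4%). Over all autosomal genes, the shares were 29.1%, 57.3% and 46.0%, so the dKO share of the list was near that of all genes. CACNA1B, a presynaptic calcium channel subunit, had 28, 51 and 32 fragments. SHANK3, a scaffold of the excitatory synapse at 0.144 Mb from the end of 22q, had 57 in dKO alone. STMN3 and RTEL1, a helicase needed for telomere stability, share the same peak, with 68 and 40 fragments.

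Of 15 genes of the outermost families, WT cells had a promoter peak at 1, dKO cells at 2 and dKO-BAF53B cells at 1, or 6.67%, 13.3% and 6.67%, against 29.1%, 57.3% and 46.0% of all autosomal genes. PGBD2, a transposase-derived gene at 0.0502 Mb from the end of 1q, had 35, 55 and 39 fragments. FAM110C, at 0.0469 Mb from the end of 2p, had 43 in dKO alone. The olfactory receptor genes OR4F5, OR4F29, OR4F16, OR4F4, OR4F17, OR4F3 and OR4F21 had none, and neither had DUX4, the gene of the repeat array at 4q. The OR4F genes and DUX4 have near-identical copies, and reads from such copies may be lost or split in alignment. In the alpha globin cluster, HBA1 and HBA2, which encode the adult alpha chain, shared 1 dKO peak of 29 fragments and had none in the other lists. Of 8 genes of the imprinted cluster of 11p, WT had a promoter peak at none, dKO at SLC22A18 and dKO-BAF53B at IGF2 and CD81. Of 10 extracellular matrix genes, WT had a promoter peak at none, dKO at AGRN and MXRA8, and dKO-BAF53B at AGRN, COL6A1 and LAMA5. In WT, dKO and dKO-BAF53B, the shares were 0%, 40% and 0% of the 5 alpha globin genes. They were 0%, 12.5% and 25% of the 11p genes and 0%, 20% and 30% of the matrix genes. All of these lie below the 29.1%, 57.3% and 46.0% of all autosomal genes. COL6A1, a chain of collagen VI, had 34 fragments in dKO-BAF53B, and AGRN, a basement membrane proteoglycan, had 58 in dKO and 39 in dKO-BAF53B.

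**Figure D5:**
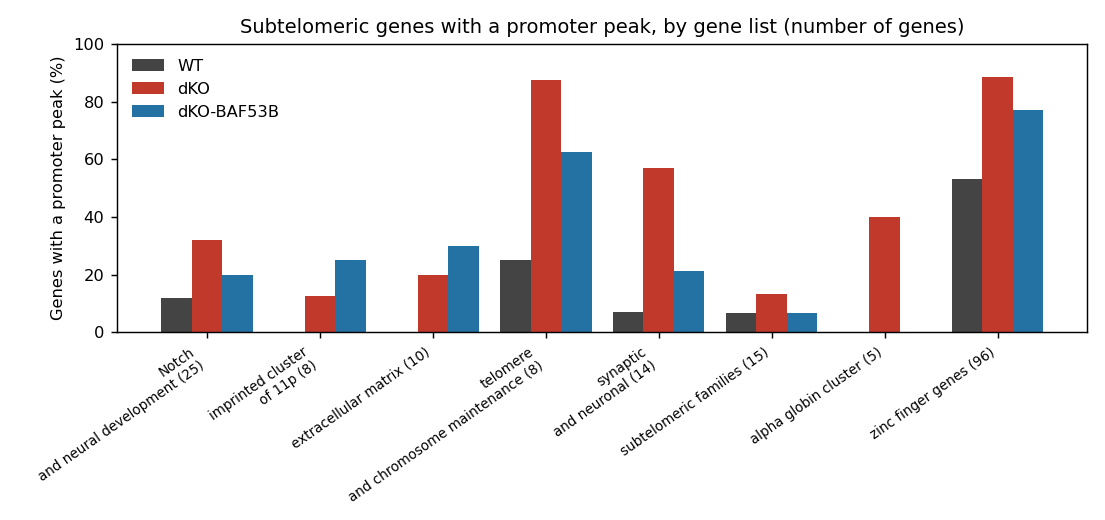
Share of subtelomeric genes with a promoter peak (y axis, percent) in the WT, dKO and dKO-BAF53B lists (bars) for each gene list, with the number of genes in brackets. The dKO bar is the highest in 6 of the 8 lists, and the extracellular matrix and 11p lists have their highest bar in dKO-BAF53B.

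The shared members with the largest dKO over WT ratio lay at SKI, TLE6, TRIM28, E4F1 and POLR3K. The SKI window shown above had 31, 121 and 58 fragments in WT, dKO and dKO-BAF53B, log2 ratios of 1.86 and then -1.05. TLE6, a Groucho-type co-repressor, had 29, 106 and 58. TRIM28, the co-repressor recruited by KRAB zinc finger proteins and located 0.0735 Mb from the end of 19q, had 54, 193 and 80. E4F1 had 37, 131 and 55, and POLR3K, a subunit of RNA polymerase III at 0.0537 Mb from the end of 16p, had 36, 126 and 74. All 5 were lower in dKO-BAF53B than in dKO, with pileups that stayed above those of WT. At the other extreme, the promoter of GLOD4 had 48, 37 and 34 fragments, a log2 ratio of -0.48, and SMYD3, a lysine methyltransferase gene, had 36, 33 and 35. A peak between genes on 4q, at chr4:190112366-190112636, had 36, 33 and 41. Peaks between genes nearest to ASPG and LRCOL1 had 39, 34 and 49 and 44, 41 and 45 fragments. These 10 members were chosen by the ratio and their values are a description.

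Members found in only some lists had lower median pileups than those found in all lists. Some of the dKO members named here nonetheless exceeded the median of 80 fragments of dKO members found in all lists. The NXN intron, with 34 fragments in WT, had no dKO peak and 33 fragments in dKO-BAF53B. A peak 1942 bp from the start of TYMS, which encodes thymidylate synthase, had 33 fragments in WT alone, and the promoter of THBS2, a matrix glycoprotein, had 37 in WT alone. Among dKO members without a WT peak, the chr5 exon had 63 fragments in dKO and 28 in dKO-BAF53B. ZNF354A had 73 and 34, ZFP62 94 and 52, IFT140, a ciliary transport gene, 154 and 68, and TFRC, the transferrin receptor gene, 81 and 37. All 5 had dKO-BAF53B peaks of smaller pileup. They were chosen by their dKO fold, so these values are a description. Of all 798 members shared by dKO and dKO-BAF53B, 7.52% had a scaled pileup ratio above 0. The dKO-BAF53B members of highest fold found in neither other list lay outside promoters, in introns of RPTOR, METTL16 and ERC1 and an exon of LINC00316. They had between 35 and 44 fragments.

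ETS sites were more frequent in members than in other peaks of the same GC content. The motif was searched as CCGGAAG on both strands within 100 bp of the summit. It was found in 19.5% of WT members against 14.2%, a difference of 5.25 percentage points (1.81 to 9.14). In dKO members it was found in 11.4% against 9.37%, a difference of 2.05 (0.59 to 3.67), and in dKO-BAF53B members in 17.0% against 11.2%, a difference of 5.81 (3.54 to 8.32). Without matching, the motif was in 12%, 7.33% and 8.46% of other peaks. With the 10 kb GC content matched as well, the differences were 6.76, 3.36 and 7.17. Without chromosome 19, they were 2.86 (-0.65 to 6.99), 0.99 (-0.49 to 2.64) and 4.37 (2.04 to 6.98), so that the interval stayed above 0 in dKO-BAF53B alone. With a 5 Mb window they were 2.38 (-0.28 to 5.34), 0.81 (-0.33 to 2.05) and 3.92 (2.17 to 5.81). With the search kept within 50 bp of the summit they were 1.959 (-0.57 to 5.09), 1.22 (0.11 to 2.497) and 3.59 (1.80 to 5.67).

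Among the other motifs, NRF1 sites (GCGCANGCG) were in 9.56% of dKO members against 8.04%, a difference of 1.52 (0.18 to 3.03), and in 13.0% of dKO-BAF53B members against 10.0%, a difference of 3.0 (0.98 to 5.29). AP-1 sites (TGANTCA) were in 2.47% of dKO members against 3.61%, a difference of -1.14 (-1.82 to -0.27). The GC box (GGGCGG) was in 49.9% of dKO members against 53.7%, a difference of -3.79 (-6.22 to -1.35). The CCAAT box bound by NFY was in 44.1% of WT members against 38.5%, a difference of 5.61 (1.03 to 10.3) that was 2.36 (-2.70 to 7.47) with the 10 kb GC content matched as well, and in 23.5% of dKO members against 25%, a difference of -1.54 (-3.56 to 0.58). For CTCF sites and the cAMP response element (TGACGTCA), the intervals of the differences included 0 in all lists. A GC box and an overlapping site of another factor were counted for both.

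Fewer dKO members than other dKO peaks of the same GC content lay in promoters, 44.2% against 53.1%, a difference of -8.99 percentage points (-11.4 to -6.56). Introns held 27.3% of dKO members against 23.6%, and intergenic sequence 19.7% against 15%. In WT, the promoter share was 69.9% against 72.2%, a difference of -2.27 (-6.70 to 1.85), and in dKO-BAF53B 58.7% against 62.1%, a difference of -3.39 (-6.58 to -0.26). With the 10 kb GC content matched as well, the dKO difference was -5.25 (-7.95 to -2.53) and the dKO-BAF53B difference -0.29 (-3.94 to 3.32). Members were also narrower than others of the same peak GC content, with medians of 454 against 518 bp in WT, 547 against 654 bp in dKO and 580 against 652 bp in dKO-BAF53B. With the 10 kb GC content matched as well, the differences were -44.5 bp (-75.5 to -12.2), -34 bp (-54.6 to -10.6) and 3.5 bp (-28.1 to 31.7). The dKO background at members was 1.78 times genome background against 1.57 at others, and it was 0.16 lower than at others when the 10 kb GC content was matched as well.

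Few members had an exact copy of their summit sequence elsewhere in the genome. Diverged copies, alternate contigs and the mitochondrial genome were not counted, so duplicated sequence in the wider sense was not tested. The 31 bases at the summit occurred more than once in the genome for 5 of 478 WT members (1.05%, 0.448 to 2.43), 23 of 1778 dKO members (1.29%, 0.863 to 1.93) and 14 of 1012 dKO-BAF53B members (1.38%, 0.826 to 2.31). Among other autosomal peaks, the shares were 2.29%, 1.67% and 1.48%. With such peaks left out, all 38 count, density, partner, height and peak property values stayed within their intervals.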

How the data were processed

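Reads were cut with cutadapt 1.13, placed on hg38 with Bowtie2 2.2.5 and freed of duplicates with SAMtools 1.3.1 and Picard 1.90 by the authors, who called peaks with MACS2 on both replicates of a group. Calling options were not given in the sources used here. The deposited fold is a ratio of summit pileup over local background, and 2 further deposited columns hold its Poisson significance, as −log10 of the p-value and, after correction, −log10 of the q-value, a score used here only for thresholds. Deposited starts, ends and summit offsets are positions. The lists give no library totals, and depth was read from the genome background, 6.33 fragments in WT, 6.81 in dKO and 6.78 in dKO-BAF53B.

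Pileup and background were solved from fold and −log10 p. Peaks overlapping by at least 1 bp were shared, and the strongest partner was used. Other peaks were weighted to the members' GC content (within 100 bp of the summit, bins of 5 points, joined below 20 peaks). For density, 10 kb windows with at least 5 kb of sequence were used (1776 dKO members). Shares have Wilson and differences Newcombe 95% intervals, with the effective number of weighted peaks. Genes came from GENCODE 44. Fixed rules named the 5 members of highest fold or most extreme ratio, those nearest the ends and the 3 Mb limit, and listed genes. The ETS example was chosen after values were seen. A listed gene and the member nearest an end are not reported here. Members and lists were chosen with earlier results of these data known. Alternatives covered window, threshold, overlap, matching, chromosomes, exact copies of the summit sequence, promoter and motif windows. Scripts (Python 3.11.15, numpy 2.4.6, pandas 2.3.3, pysam 0.24.0) were tested on simulated data.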

Additional observations from a re-analysis of the deposited data

How the results depend on the processing

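Of 663 values recomputed under the alternatives for 65 results, 520 stayed within the interval of the reported value. Differences below are subtelomeric minus other peaks, in percentage points for shares and in log2 units for pileup and background. The cause of the changes was not tested. No paired analysis was possible because each peak list pools both replicates and its columns carry no replicate number, and for the same reason no replicate could be left out. With a 1 Mb window, the shares of peaks were 2.38% in WT, 2.504% in dKO and 2.16% in dKO-BAF53B, and the density ratios were 0.923, 0.869 and 0.856. The differences at 1 Mb were -1.43 for dKO peaks with a WT partner, -2.63 and -9.15 for genes in WT and dKO, -4.88 and 0.12 for the promoter share in dKO and dKO-BAF53B, and 8.41 for ETS sites in dKO-BAF53B. The background values were -0.17 for dKO-BAF53B over dKO and 0.14 for dKO peaks. With a 5 Mb window, the shares of peaks were 9.62%, 11.1% and 9.57%, and WT members without a dKO peak were found in dKO-BAF53B more often than others, by 1.80.

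At a −log10 q of at least 10, the shares were 6.84% in WT and 6.57% in dKO-BAF53B. The differences there were 0.42 for dKO peaks with a WT partner, -2.39 with a dKO-BAF53B partner, 0.73 for dKO-BAF53B peaks with a dKO partner and 25 for WT members without a dKO peak that were found in dKO-BAF53B, and -7.31 for genes in dKO, -2.92 and 0.33 for the promoter share in dKO and dKO-BAF53B, -0.20 for the dKO-BAF53B over dKO background and 0.26 for the dKO background. With lists of equal length, the shares were 7.66% in dKO and 6.54% in dKO-BAF53B, and the differences were -0.63 and -1.84 for dKO peaks with a WT and a dKO-BAF53B partner, 1.963 for dKO-BAF53B peaks with a dKO partner and -5.68 for genes in dKO.

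Without matching, the density ratios were 1.51, 1.75 and 1.48. The partner differences were 11.6 for WT with dKO, -0.54 for dKO with WT, 0.76 for dKO with dKO-BAF53B, 13.1 for dKO-BAF53B with dKO and 0.73 for dKO-only peaks found in dKO-BAF53B. The dKO-BAF53B over dKO values were -0.16 in pileup and -0.24 in background, and genes differed by -3.73 in dKO and -3.12 in dKO-BAF53B. Unmatched peak properties were 4.14 and 13.7 for the promoter share in dKO and dKO-BAF53B, 0.32 for the dKO background, 10.5 bp for the dKO-BAF53B width, 11.6 for the GC box in dKO and 4.09 and 8.53 for ETS sites in dKO and dKO-BAF53B. With promoter status matched too, dKO partner differences were -1.06 with WT and -2.77 with dKO-BAF53B. With the GC content of the whole peak, the background values were 0.13 for dKO over WT, -0.19 for dKO-BAF53B over dKO and 0.16 for dKO peaks, and the dKO promoter share differed by -12.0. Without chromosome 19, the shares were 5.42%, 6.66% and 5.49%, the lowest when each chromosome was left out in turn, and the highest dKO share was 7.53%. On the authors' fold, the log2 height differences were -0.0119 for dKO over WT and 0.0582 for dKO-BAF53B over dKO.

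Alternatives chosen after seeing the data were matching on the 10 kb GC content, on chromosome and, for motifs, leaving out chromosome 19. With chromosome matched, the dKO-BAF53B over dKO background differed by -0.18. With the 10 kb GC content matched, the ratios of the count changes were 1.02 and 0.986, and the partner differences -0.025 and 0.0353 for dKO with WT and dKO-BAF53B and 0.65 for dKO-BAF53B with dKO. Pileup and background differences were 0.0291 and 0.00536 for dKO over WT and -0.0101 and -0.0147 for dKO-BAF53B over dKO, and genes differed by 0.48, -2.29 and 2.38. The peak properties were -0.0687 and -0.16 for the WT and dKO background, -5.25 for the dKO promoter share, -3 fragments for the dKO pileup and 3.5 bp for the dKO-BAF53B width. Depth limits the lists to peaks of at least 25 fragments, so weaker accessible sites near the ends were not seen.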
